A study of Homo sapiens with 6 samples.

Results

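The report compares what short hairpin RNAs against MEX3A did to gene expression in PA-1 and in TOV21G, 2 human ovarian tumour cell lines, and describes the genes whose response differed between them. For each gene the difference between each hairpin library and the control library of its own line was taken, and the PA-1 differences were subtracted from the TOV21G differences. The comparison was limited to genes with a mean of at least 5 CPM (the count of a gene scaled to the TMM-adjusted total of its library) over the 3 libraries of each line. Of 39282 genes, 9994 met this minimum. The genes nearest to it were RUSC1-AS1 and PSMC3IP just inside, and PARP11 and ZNF880 just outside. ZNF880, for example, had at most 7.52 CPM in the 3 TOV21G libraries.

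PA-1 is labelled as an ovarian teratocarcinoma line, a tumour of germ cell origin, and TOV21G as an ovarian clear cell carcinoma line. All 6 libraries came from cells infected with lentivirus. In each line 1 library carried a scramble hairpin (the control), 1 carried sh-MEX3A#1 (hairpin 1) and 1 carried sh-MEX3A#2 (hairpin 2). The series' design text calls the depleted cells clones, and the labels do not say whether a clone was grown from a single cell or whether libraries came from separate cultures. The p-values below therefore measure only the spread between these libraries, which may be technical. With 1 control per line, both hairpin differences of a line share that control, so an unusual level in it moves both in the same direction. Fewer cells of a kind and less RNA per cell cannot be told apart in bulk RNA.

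MEX3A encodes an RNA-binding protein with KH domains and a RING domain, the fold of many ubiquitin ligases. The series asks about the tumour suppressor p53, which induces genes of cell cycle arrest and apoptosis when it is stabilised, and about ferroptosis, a form of cell death driven by lipid peroxidation. When p53 induces the inhibitor p21, repressor complexes with RB-family proteins hold down the genes of DNA replication and mitosis. Many mitotic genes carry for this a CHR element (cell cycle genes homology region) near their start site.

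MEX3A itself was lower with every hairpin. In PA-1 it stood at 137 CPM in the control and at 41.2 and 55.1 CPM with the hairpins, and in TOV21G at 79.0, 39.7 and 32.8 CPM. The log2 effect in TOV21G minus that in PA-1 was 0.39 with an approximate standard error (SE) of 0.42, so the depth of depletion did not differ beyond its error. MEX3A lies on chromosome 1 at 156072013 to 156082465 (GRCh38.p14, as for each position below).

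Both lines kept their identity. The 9 germ cell tumour markers summed to between 3773 and 4528 CPM in PA-1 and between 133 and 159 CPM in TOV21G. LIN28B and NANOG had no count in any TOV21G library, and PDK4 and PXDN, both well expressed in TOV21G, had none in any PA-1 library. For 13 genes with at least 200 CPM in every TOV21G library and under 1 CPM in the PA-1 control, the median in the PA-1 libraries was 0.102 to 0.189 CPM. The reverse set of 14 genes had medians of 0 to 0.0999 CPM in TOV21G, with DPYSL3 the highest at 11.1 CPM with hairpin 2. Both sets required 200 CPM in each library of their own line, so genes lost there with the hairpins could not enter. The labelled tissue was ovarian surface epithelium. Of 10 markers of that tissue, 7 stood at 1 CPM or more in each TOV21G library and 3 or 4 in each PA-1 library. PAX8 stood at 240 to 271 CPM in TOV21G and under 0.2 CPM in PA-1. KRT8 and KRT18 stood at 60.6 CPM or more in every library, and CALB2 and UPK3B stayed under 1 CPM in every library. Blood cell markers summed to at most 8.86 CPM. Endothelial markers summed to 172, 169 and 299 CPM in the PA-1 control, hairpin 1 and hairpin 2, with KDR at 47, 51.3 and 132 CPM. In TOV21G they summed to at most 15.4 CPM. Fibroblast markers summed to 18, 113 and 202 CPM in the TOV21G control, hairpin 1 and hairpin 2 and to 212, 325 and 440 CPM in PA-1. Most of the PA-1 sum was THY1 (84.8, 109 and 262 CPM) and COL1A1 (89, 181 and 124 CPM). PDGFRB stood at 14.5, 6.67 and 8.42 CPM in PA-1, and DCN at 6.88, 8.24 and 13 CPM in TOV21G. Of the 10 markers, 4 stayed under 1 CPM in every library. Total expected counts lay between 14654628 and 19495162 per library.

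The first question was how many genes responded differently. edgeR's quasi-likelihood test called 0 of 16856 genes tested (0%) at an adjusted p of 0.05. At an unadjusted p of 0.05 it had 660 genes, below the 843 that chance alone gives, and every compared gene had an edgeR adjusted p of 1. The fit had 2 residual degrees of freedom, and its spread came from hairpins that disagreed far more in TOV21G. The hairpins differed at least 2-fold from each other for 1115 compared genes (11.16%) in TOV21G and for 102 (1.02%) in PA-1. limma voom also called 0 compared genes. DESeq2's Wald test, an alternative, called 20 of the 13113 genes to which it gave an adjusted p (0.153%), of which 17 were among the 9994. It placed 5 higher in TOV21G relative to PA-1 (SMOC1, IGDCC4, COL1A1, IQGAP2 and ID3) and 12 lower (ANXA1, LOX, ANXA4, IGFBP7, SPP1, ANXA3, TNC, LINC00472, RAPGEF5, LRP8, ELOVL7 and ANK1).

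Since no gene passed the main test, genes were described by size. A gene was called line-separated when all 4 differences between a TOV21G and a PA-1 hairpin effect had the same sign and were at least 2-fold. The value given as the gap is the smallest of the 4, on the log2 CPM scale with a prior count of 2. There were 168 line-separated genes lower in TOV21G relative to PA-1 (1.68% of 9994) and 52 higher (0.520%). At any size, all 4 differences were below 0 for 3006 genes (30.1%) and above 0 for 2066 (20.7%), and the median difference over all compared genes was -0.07. Leaving out a library leaves fewer differences to pass and raised the counts. Without TOV21G hairpin 1 there were 677 lower and 309 higher, without TOV21G hairpin 2 there were 362 and 169, without PA-1 hairpin 1 there were 283 and 90, and without PA-1 hairpin 2 there were 238 and 84. Of the 168 genes 161 to 168 were again among them, and of the 52 genes 47 to 52. A gene that passes all 4 differences also passes those that remain, apart from rescaling and the minimum level. This overlap was therefore built in, and nothing is read from it. The mean effects of the lines had a Pearson r of 0.35 across genes, a description, since genes are not independent replicates.

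**Figure D1:**
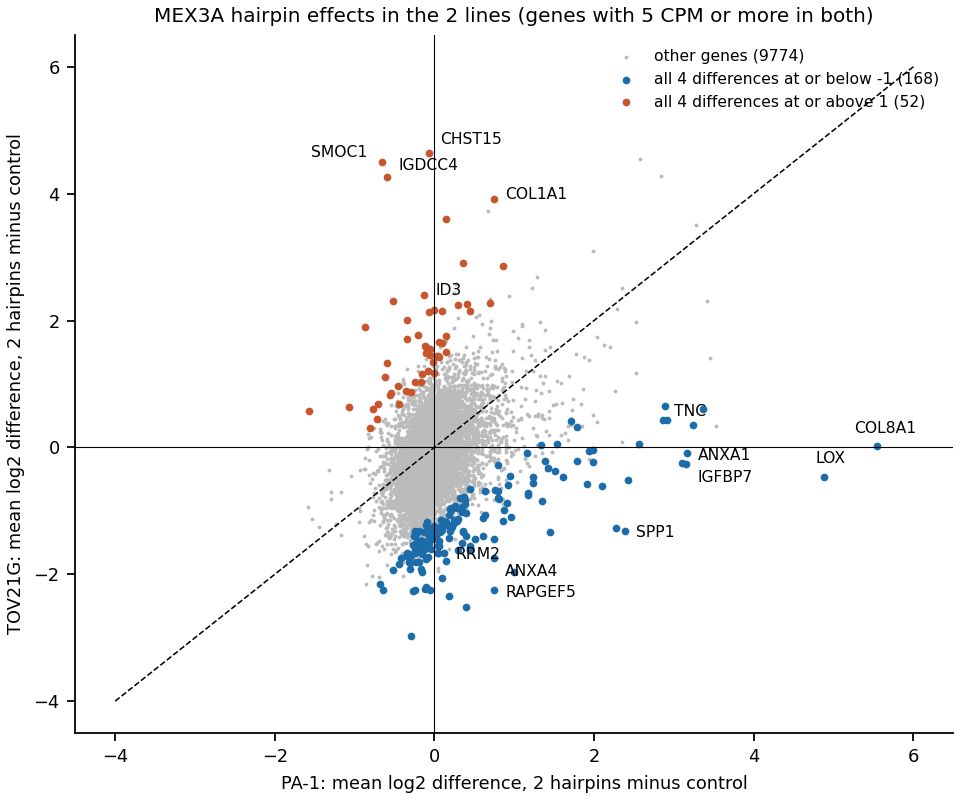
Mean log2 difference of the 2 hairpins from the control in PA-1 (x axis) and TOV21G (y axis) for 9994 genes, 1 point each, with equal effects on the dashed line. The 168 genes lower in TOV21G relative to PA-1 (blue) form an arm below 0 in TOV21G and an arm far to the right in PA-1, and the 52 genes that were higher (orange) lie mostly above 1 in TOV21G.

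The 168 genes lower in TOV21G formed separate arms. Of these, 99 were at least 2-fold lower with both hairpins in TOV21G, 33 were at least 2-fold higher with both in PA-1, and 36 met neither. Of the 33, 32 were lower in the PA-1 control than in the TOV21G control, but 17 of the 33 had a PA-1 control below 5 CPM and met the minimum through their hairpin libraries, so nothing is read from this count. Of the 99, 45 were higher in the TOV21G control and 54 in the PA-1 control. Of the 52 genes in the opposite direction, 36 were at least 2-fold higher with both hairpins in TOV21G and 36 were within 1.5-fold of the control with both in PA-1. In the PA-1 control 44 of the 52 were higher. However, 17 of the 52 had a TOV21G control below 5 CPM and met the minimum through their hairpin libraries, so nothing is read from the count of 44. Among all 9994 genes 50.6% were higher in the TOV21G control. The control level enters both the line difference and the hairpin effect, so a gene measured low in a control by chance would lie on the same side.

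The first arm included genes of the cell cycle. Of its 99 genes 21 were members of the lists of mitosis, DNA replication or repair described next, and the rest were in none of them. Those lists held 52, 50 and 29 of the 9994 compared genes. Of 52 compared genes of G2/M and mitosis, 50 had all 4 differences below 0, against 30.1% of all genes, and 13 were line-separated, against 1.68%. The list median of the difference was -0.96, against -0.07 for all genes. By hairpin the medians were -0.20 and -0.25 in PA-1 and -1.11 and -1.29 in TOV21G. None of the 52 was called by DESeq2 or edgeR.

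PTTG1 encodes securin, which inhibits the protease separase, and so keeps sister chromatids from separating, until anaphase. It stood at 59.3, 59.2 and 63.7 CPM in PA-1 (control first, then the hairpins by number), and at 77.3, 25.8 and 27.0 CPM in the same order in TOV21G. Both TOV21G hairpin libraries were far below their control and the PA-1 libraries were level. The difference was -1.60 (SE 0.33). NUF2, a subunit of the kinetochore complex that binds microtubules, stood at 34.7, 39.0 and 35.2 CPM in PA-1 and at 27.1, 10.8 and 11.1 CPM in TOV21G (difference -1.40, SE 0.36). UBE2C, the ubiquitin-conjugating enzyme of the anaphase-promoting complex, stood at 79.0, 72.2 and 66.9 CPM in PA-1 and at 45.6, 16.3 and 15.2 CPM in TOV21G. PBK, a mitotic kinase, stood at 17.8, 15.9 and 16.1 CPM in PA-1, and 65.4 CPM in the TOV21G control became 21.6 and 19.2 CPM. For each of these 4 genes the TOV21G control was well above both TOV21G hairpin libraries, and the PA-1 control lay within 1.2-fold of both PA-1 hairpin libraries. The other line-separated members were SPC25, CKAP2L, CDK1, TTK, NUSAP1, MAD2L1, DLGAP5, BUB1B and CCNA2.

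Of 50 compared genes of G1/S and DNA replication, 42 had all 4 differences below 0, against 30.1% of all genes. Line-separated were 6 (RRM2, CDC45, CCNE2, TK1, E2F2 and POLE2), against 1.68% of all genes. The list median of the difference was -0.90. Its hairpin medians were -0.16 and -0.29 in PA-1 and -0.81 and -1.45 in TOV21G, a wider split between the TOV21G hairpins than for mitosis. RRM2, the small subunit of ribonucleotide reductase, had the largest gap (-1.68). It stood at 107, 111 and 122 CPM in PA-1, slightly above the control with both hairpins, and at 220, 70.9 and 67.9 CPM in TOV21G. CDC45, part of the replicative helicase, stood at 16.8, 14.9 and 16.8 CPM in PA-1 and at 19.1, 6.08 and 5.39 CPM in TOV21G. CCNE2, an E-type cyclin, had 14, 5.75 and 5.33 CPM in TOV21G, and TK1, thymidine kinase, had 35.6, 12.9 and 12.5 CPM there. In PA-1 CCNE2 had 6.43, 8.61 and 6.33 CPM and TK1 had 29.3, 27.7 and 25 CPM. The 3 compared replication-dependent histone genes had a median of 0.97, in the other direction. H1-2, a linker histone, stood at 6.24, 5.88 and 8.27 CPM in PA-1 and at 24.8, 52.5 and 56.7 CPM in TOV21G. Histone genes are near-identical copies whose reads may be split between them, so these values are uncertain.

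Genes of homologous recombination and Fanconi repair, the pathways that mend double-strand breaks and crosslinks with a sister chromatid, had a list median of -0.93. All 4 differences were below 0 for 26 of 29, against 30.1% of all genes. Line-separated lower in TOV21G were 2, FANCI among them, against 1.68% of all genes. FANCI, a core protein of crosslink repair, stood at 161, 171 and 140 CPM in PA-1 and 107, 42.9 and 37.1 CPM in TOV21G. BRCA1 just missed the 2-fold gap (-0.92), with 85.4, 73.2 and 67.1 CPM in PA-1 and 55.2, 22.9 and 22.0 CPM in TOV21G.

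**Figure D2:**
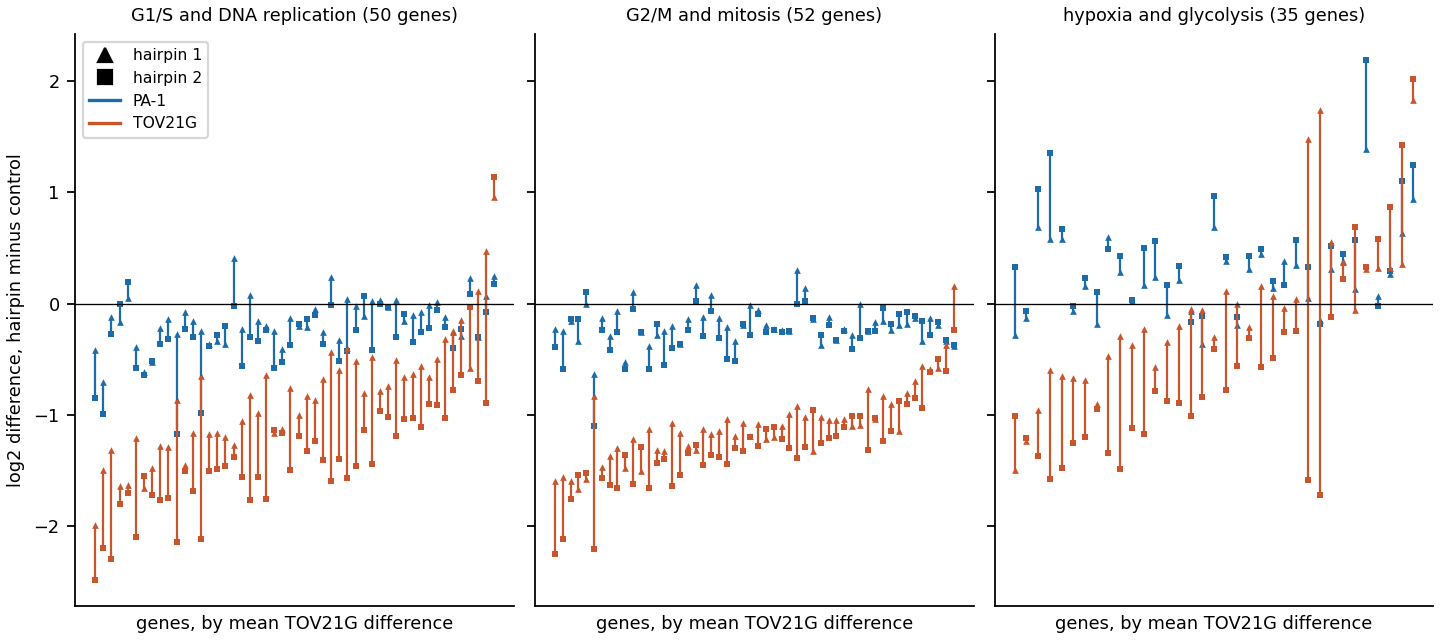
Log2 difference from the control of each hairpin (triangle, hairpin 1, square, hairpin 2) for each compared gene of 3 lists, PA-1 in blue and TOV21G in orange, with a line joining the hairpins of a gene. In the replication and mitosis lists the TOV21G values lie mostly between -0.5 and -2.5 and the PA-1 values near 0, while in the hypoxia and glycolysis list most PA-1 values lie above 0.

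Promoter sequences are shown for members whose window holds letters matching a CHR, with matches to the CCAAT box also marked. What these matches do in these promoters was not tested. The sequences come from RefSeq (GRCh38.p14), 250 bases before to 30 bases after the start site, 5′ to 3′ on the strand of the gene. Capitals mark a CHR (TTTGAA or TTTAAA, either strand) or a CCAAT box (CCAAT, either strand), and start positions count from the start site. PTTG1 (chr5:160421605-160421884, plus strand) held a CHR at -29 and 3 CCAAT matches, of which the nearer pair overlap. RRM2 (chr2:10122489-10122768, plus strand) held a CHR at -30 and 3 CCAAT boxes at -123, -93 and -66. NUF2 (chr1:163321704-163321983, plus strand) held a CHR at 17 and no CCAAT box.
PTTG1: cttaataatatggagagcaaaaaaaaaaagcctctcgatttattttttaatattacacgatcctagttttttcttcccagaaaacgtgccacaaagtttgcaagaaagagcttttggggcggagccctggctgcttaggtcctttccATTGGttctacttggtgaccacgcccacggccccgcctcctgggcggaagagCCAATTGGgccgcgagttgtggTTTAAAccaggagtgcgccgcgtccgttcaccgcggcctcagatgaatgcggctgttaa
RRM2: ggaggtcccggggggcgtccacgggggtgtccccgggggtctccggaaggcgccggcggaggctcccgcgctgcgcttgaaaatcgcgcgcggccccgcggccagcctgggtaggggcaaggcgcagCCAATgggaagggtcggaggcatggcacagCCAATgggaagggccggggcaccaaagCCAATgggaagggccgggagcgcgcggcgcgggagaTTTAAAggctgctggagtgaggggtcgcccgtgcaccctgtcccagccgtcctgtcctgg
NUF2: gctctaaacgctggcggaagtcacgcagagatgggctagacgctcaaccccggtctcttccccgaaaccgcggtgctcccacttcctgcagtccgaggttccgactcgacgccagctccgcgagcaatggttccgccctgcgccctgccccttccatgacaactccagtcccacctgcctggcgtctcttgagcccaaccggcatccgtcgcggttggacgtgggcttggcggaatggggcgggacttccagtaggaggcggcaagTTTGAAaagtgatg

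Over the whole window of 300 bases, 8219 of the 9994 compared genes had a promoter in the table. Of the 99 genes lower in TOV21G, 76 had one, and 35 of these (46.1%) held a CHR, against 15% of compared genes and 24.3% of all 27305 promoters. Leaving out the members of the G2/M list, 26 of 66 (39.4%) held a CHR, among them POLQ, LMNB1, SKA1, SPAG5 and NEIL3. That list does not hold every mitotic gene, so the 66 may still include such genes. A CHR together with a CCAAT box was in 20 of the 76 (26.3%), against 6.34% of compared genes. An E2F site (TTTCGCGC, TTTGGCGC or TTTCCCGC) was in 51.2% of the G1/S list with a promoter and in 9.21% of the 76, against 5.07% of compared genes. The 52 genes higher in TOV21G held a CHR in 3 of 41 promoters (7.32%). These are counts of letters in a window and describe no binding.

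The second arm was the 33 genes at least 2-fold higher with both hairpins in PA-1. Of these 28 were lower than the control or within 1.5-fold of it with both hairpins in TOV21G. The genes were picked for TOV21G effects at least 2-fold below those in PA-1, so nothing is read from this count. LOX, lysyl oxidase, which crosslinks collagen, had the widest gap of this direction (-4.04). It stood at 1.77 CPM in the PA-1 control (95% counting interval 1.17 to 2.55, counting error only), 30.7 with hairpin 1 and 100 with hairpin 2, and at 61.4, 60.7 and 32.8 CPM in TOV21G. The difference was -5.60 (SE 1.22), and DESeq2 gave an adjusted p of 0.000167. LOX lies on chromosome 5 at 122063195 to 122078259. COL8A1, a collagen chain, had 9 counts in the PA-1 control (0.568 CPM, interval 0.260 to 1.08), then 10.5 and 96.7 CPM, and 52.2, 35.0 and 80.0 CPM in TOV21G. The PA-1 hairpins were far apart for this gene, and its DESeq2 adjusted p was 0.795.

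Annexins bind phospholipid membranes when calcium is present. Of 8 compared annexin genes, a family counted after its values were seen, 3 were line-separated lower in TOV21G and 0 higher. The shares among all compared genes were 1.68% and 0.520%. The family was picked for its values, so nothing is read from this count. ANXA1 stood at 15.4, 138 and 138 CPM in PA-1 and at 431, 465 and 354 CPM in TOV21G. Its PA-1 hairpins coincided and its TOV21G libraries were close together, and it had the smallest adjusted p of the DESeq2 test (5.4e-06) with a difference of -3.24 (SE 0.40). ANXA3 stood at 3.85, 22.2 and 20.3 CPM in PA-1 and at 61.0, 35.5 and 51.7 CPM in TOV21G (-2.95, SE 0.48, DESeq2 adjusted p = 0.00751). ANXA4 differed from the control in both lines. It stood at 17.7, 30.2 and 29.1 CPM in PA-1, a small step up, and at 656, 195 and 197 CPM in TOV21G, a fall of like size with both hairpins (-2.49, SE 0.33, DESeq2 adjusted p = 0.000367).

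SPP1, the secreted phosphoprotein osteopontin, stood at 167, 893 and 856 CPM in PA-1 and at 6074, 1611 and 3732 CPM in TOV21G. It was higher to a like degree with both hairpins in the first line and lower with both in the second, where the hairpins were more than 2-fold apart (-3.58, SE 0.74, DESeq2 adjusted p = 0.00253). IGFBP7, a secreted protein of the insulin-like growth factor binding family, stood at 5.68, 43.3 and 60.8 CPM in PA-1 and at 1017, 657 and 1095 CPM in TOV21G (-3.41, SE 0.60, DESeq2 adjusted p = 0.00057). TNC, the matrix glycoprotein tenascin C, stood at 67.5, 571 and 421 CPM in PA-1 and at 46.8, 59.8 and 67.0 CPM in TOV21G, so that the controls were within 1.5-fold and the PA-1 hairpin libraries stood alone (-2.44, SE 0.42, DESeq2 adjusted p = 0.00751). The long noncoding RNA LINC00472 stood at 3.22, 19.2 and 42.3 CPM in PA-1 and at 109, 112 and 75.0 CPM in TOV21G.

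**Figure D3:**
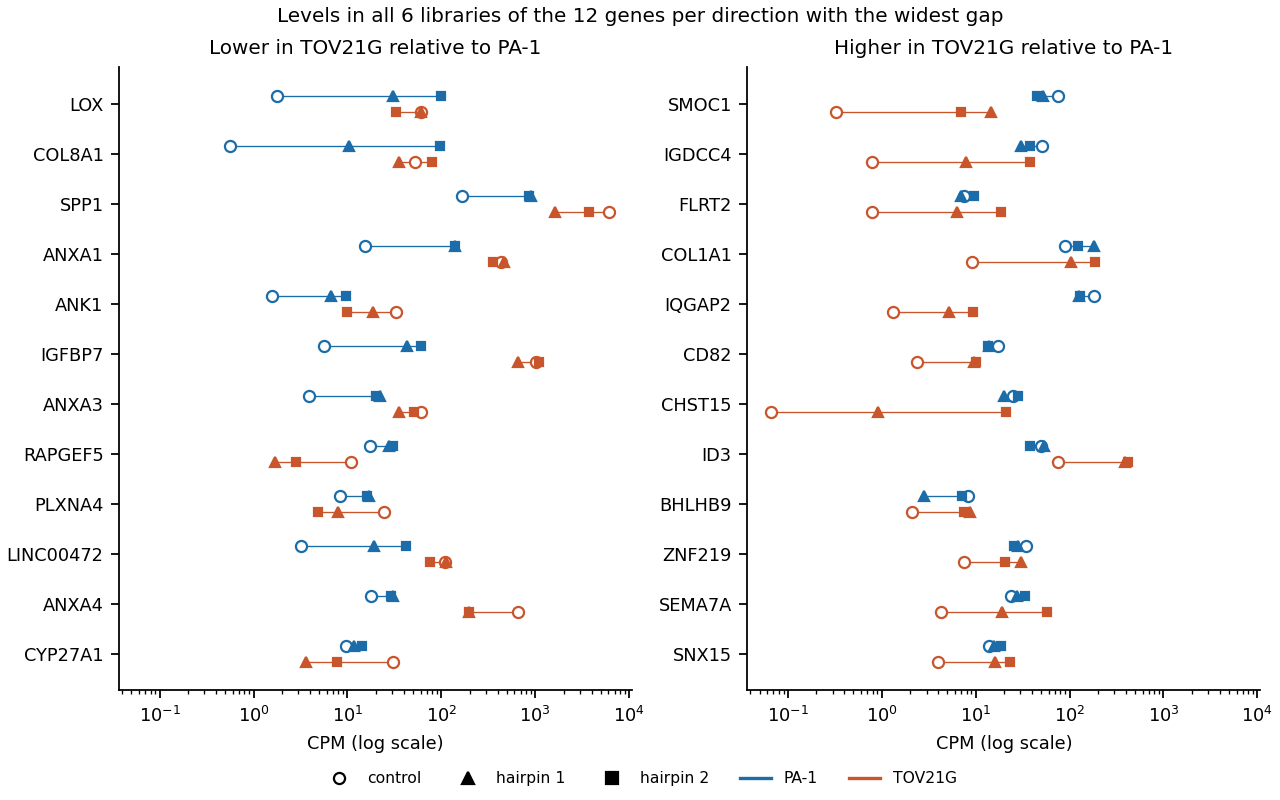
CPM on a log axis in all 6 libraries of the 12 genes per direction with the widest gap, with the control as an open circle, hairpin 1 as a triangle and hairpin 2 as a square, PA-1 in blue and TOV21G in orange. On the left the PA-1 control lies below both PA-1 hairpins for each of the 12 genes, and on the right the TOV21G control lies below both TOV21G hairpins for each of the 12.

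Of 25 compared collagen and matrix genes, 5 were line-separated lower in TOV21G (LOX, COL8A1, TNC, PLOD2 and FBLN1) and 2 higher (COL5A1 and COL1A1). The list median was -0.11, near that of all genes. Among all compared genes 1.68% were separated lower and 0.520% higher. Thus the list had members at both extremes. Its median was 0.339 without TOV21G hairpin 1 and -0.529 without TOV21G hairpin 2. LAMC1, the laminin gamma chain of most basement membranes, was the separated member of 17 integrin and laminin genes. It stood at 649, 796 and 897 CPM in PA-1 and at 4050, 2141 and 2189 CPM in TOV21G. The summed fibroblast markers (above) were also higher in the PA-1 hairpin libraries, and their part in these values was not tested.

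Promoters with an AP-1 motif (TGANTCA, in capitals, either strand) are shown for F3 and CAPG, since this motif was in 5 of the 27 promoters (18.5%) of genes at least 2-fold higher in PA-1 against 3.86% of compared genes and 7.76% of all promoters. The 5 were CAPG, ECM1, EMP1, F3 and TRAF3IP2. F3 (chr1:94541730-94542009, minus strand) held 2 matches at -223 and -210, and CAPG (chr2:85413987-85414266, minus strand) held 1 at -59.
F3: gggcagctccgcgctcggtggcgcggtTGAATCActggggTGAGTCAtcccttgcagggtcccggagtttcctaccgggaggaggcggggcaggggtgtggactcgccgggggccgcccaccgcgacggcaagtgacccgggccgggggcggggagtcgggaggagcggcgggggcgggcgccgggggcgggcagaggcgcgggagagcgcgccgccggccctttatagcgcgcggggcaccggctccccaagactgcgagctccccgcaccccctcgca
CAPG: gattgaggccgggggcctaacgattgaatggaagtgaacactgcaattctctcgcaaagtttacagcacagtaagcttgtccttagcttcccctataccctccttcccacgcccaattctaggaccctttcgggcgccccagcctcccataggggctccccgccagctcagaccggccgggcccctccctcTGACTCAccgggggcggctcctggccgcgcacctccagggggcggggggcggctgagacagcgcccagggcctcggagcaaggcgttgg

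F3, tissue factor, which starts the coagulation cascade, stood at 10.4, 22.9 and 26.7 CPM in PA-1 and at 14.9, 14.2 and 7.19 CPM in TOV21G. Both PA-1 hairpin libraries were above every TOV21G library (difference -1.73, SE 0.65, DESeq2 adjusted p = 1). It was the line-separated member of 20 compared targets of YAP and TEAD, whose list median was 0.10, and -0.056 without TOV21G hairpin 2. TNFAIP3, an inhibitor of NF-kB signalling, stood at 11.1, 18.5 and 25.1 CPM in PA-1 and at 59.7, 42.6 and 44.5 CPM in TOV21G. It was the separated member of 12 inflammatory genes. Among all compared genes 1.68% were separated lower, so a single member of lists this small is read no further.

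Hypoxia and glycolysis genes leaned higher in PA-1 and, with hairpin 2, lower in TOV21G. Of 35 compared members 23 had all 4 differences below 0, against 30.1% of all genes, and 3 had all above, against 20.7%. The list median was -0.68. The hairpin medians were 0.24 and 0.42 in PA-1 and -0.06 and -0.84 in TOV21G. The list median was -0.389 without TOV21G hairpin 2 and -1.039 without TOV21G hairpin 1. ENO2, an enolase of the glycolytic pathway, had the widest gap (-1.66), with 46.9, 76.0 and 95.9 CPM in PA-1 and 105, 53.9 and 40.6 CPM in TOV21G. BNIP3, a mitophagy receptor induced in hypoxia, stood at 82.8, 124 and 132 CPM in PA-1 and at 193, 122 and 69.1 CPM in TOV21G. NDRG1, another gene induced in hypoxia, stood at 13.4, 20.1 and 34.2 CPM in PA-1 and at 104, 68.4 and 34.8 CPM in TOV21G. For ENO2, BNIP3 and NDRG1 the mean hairpin levels of the lines lay closer to each other than the controls did. HK2, a hexokinase, differed in kind, being level in PA-1 at 239, 219 and 228 CPM and lower in TOV21G at 148, 62.6 and 63.7 CPM. None of the 35 was called by DESeq2 or edgeR.

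Other metabolic and biosynthetic lists had smaller shifts. Ribosome biogenesis and MYC targets had a median of -0.27, with 19 of 34 members below 0 in all 4 differences. Nuclear genes of oxidative phosphorylation had a median of -0.28 (-0.08 without TOV21G hairpin 2), with 24 of 52. The share among all genes was 30.1%. Neither list held a line-separated gene. MYC itself stood at 13.1, 18.4 and 18.9 CPM in PA-1 and at 96.8, 73.4 and 42.5 CPM in TOV21G, and FBL, the nucleolar methyltransferase fibrillarin, was near level in PA-1 (164, 147 and 139 CPM) against 210, 98.8 and 55.0 CPM in TOV21G. Cytosolic ribosomal protein genes had a median of 0.01 over 78 members, and proteasome genes 0.07 over 33 (-0.061 without TOV21G hairpin 2). Cholesterol synthesis had -0.10 over 24 genes and fatty acid synthesis 0.16 over 15 (-0.028 without TOV21G hairpin 1). FASN, fatty acid synthase, was lower with both hairpins in PA-1, with 1055, 722 and 694 CPM there and 212, 279 and 218 CPM in TOV21G.

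Among the 52 genes higher in TOV21G relative to PA-1, the leading ones were nearly silent in the TOV21G control. The control stood below 5 CPM for 17 of the 52, which therefore met the minimum through their hairpin libraries, so their number is no measure of how common such genes were. SMOC1, a secreted calcium-binding matrix protein, had the widest gap of either direction (4.55). It had 5 counts in the TOV21G control, or 0.328 CPM (interval 0.106 to 0.765), then 14.4 and 7.06 CPM, and 75.8, 51.6 and 44.7 CPM in PA-1. The difference was 5.66 (SE 0.83), with a DESeq2 adjusted p of 4.17e-05. SMOC1 lies on chromosome 14 at 69879416 to 70032366. IGDCC4, a membrane protein of the immunoglobulin superfamily, had 0.787, 7.84 and 38.2 CPM in TOV21G and 51.4, 30.5 and 37.9 CPM in PA-1 (5.44, SE 1.45, DESeq2 adjusted p = 0.00498). For FLRT2, an adhesion protein, the values were 0.787, 6.41 and 18.5 CPM in TOV21G and 7.44, 7.03 and 9.55 CPM in PA-1. CHST15, a chondroitin sulfotransferase, had 1 count in the TOV21G control (interval up to 0.365 CPM), 0.915 CPM with hairpin 1 and 21.1 with hairpin 2, so it met the minimum through a single library.

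COL1A1, the alpha chain of type I collagen, was higher in both lines and by more in TOV21G. It stood at 9.11, 103 and 187 CPM in TOV21G and at 89.0, 181 and 124 CPM in PA-1 (3.22, SE 0.66, DESeq2 adjusted p = 0.00498). COL1A1 was most of the summed fibroblast markers in the TOV21G hairpin libraries, 103 of 113 and 187 of 202 CPM. ID3, an inhibitor of helix-loop-helix transcription factors and a target of BMP signalling, was well expressed in every library. It stood at 76.2, 392 and 416 CPM in TOV21G, higher to a like degree with both hairpins, and at 49.1, 53.2 and 37.8 CPM in PA-1 (2.52, SE 0.43, DESeq2 adjusted p = 0.00352). SMAD7, the inhibitory SMAD that TGF-beta and BMP induce, stood at 16.1, 44.8 and 68.5 CPM in TOV21G and at 16.1, 12 and 16.1 CPM in PA-1. Thus the controls coincided for SMAD7 and the TOV21G hairpin libraries stood above every other. ID2, a relative of ID3, stood at 149, 334 and 281 CPM in TOV21G and at 47.2, 47.8 and 27.1 CPM in PA-1. Of 17 compared TGF-beta ligands and targets, 8 had all 4 differences above 0, against 20.7% of all genes, and 3 below, against 30.1%. The list median was 0.38 (0.596 with a 10 CPM minimum).

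CCND2, a D-type cyclin, stood at 114, 423 and 350 CPM in TOV21G and at 374, 466 and 371 CPM in PA-1 (1.60, SE 0.39, DESeq2 adjusted p = 0.353). CD82, a tetraspanin and a listed p53 target, stood at 2.36, 9.54 and 10.2 CPM in TOV21G and at 17.3, 13.9 and 13.4 CPM in PA-1. SFRP1, a secreted WNT antagonist, reached the list from the side of PA-1, where 354 CPM in the control became 114 and 124 CPM. In TOV21G it stood at 72.4, 173 and 67.5 CPM, so hairpin 2 left it level.

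Genes with opposite effects in the lines were few. With both hairpins at least 1.5-fold each way, 14 genes were higher in PA-1 and lower in TOV21G (0.140% of 9994) and 1 was the reverse (0.0100%). At 2-fold each way there were 0. The 14 were ANK1, ANXA4, BIVM, CAPG, ENO2, LRP8, MFAP3L, NRN1, PLXNA4, RAB20, RAPGEF5, SGPP2, SHC3 and SPP1, and the reverse gene was PAPLN. PLXNA4, a receptor for semaphorins, stood at 8.26, 17.1 and 16.1 CPM in PA-1 and at 24.5, 7.84 and 4.86 CPM in TOV21G, so its control levels had the opposite order from its hairpin levels (-2.95, SE 0.54, DESeq2 adjusted p = 0.0769). CAPG, an actin-capping protein, stood at 5.80, 19.8 and 13.0 CPM in PA-1 and at 131, 67.3 and 39.6 CPM in TOV21G. RAPGEF5, an exchange factor for Rap GTPases, stood at 17.2, 27.6 and 30.4 CPM in PA-1 and at 10.9, 1.70 and 2.80 CPM in TOV21G (-3.03, SE 0.53, DESeq2 adjusted p = 0.0454). ANK1, which ties membrane proteins to the spectrin skeleton, stood at 1.58, 6.67 and 9.75 CPM in PA-1 and at 33.0, 18.6 and 9.92 CPM in TOV21G, where hairpin 2 brought the lines to nearly the same level.

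PAPLN, an extracellular matrix protein, had 32.8, 20.2 and 19.7 CPM in PA-1 and 24.5, 38.3 and 40.4 CPM in TOV21G. The next genes of this direction did not reach 1.5-fold with every hairpin. LIN28A, an RNA-binding protein that blocks let-7 maturation in stem cells, stood at 2806, 1697 and 2023 CPM in PA-1 and at 22.5, 41.8 and 77.6 CPM in TOV21G. IQGAP2, a scaffold protein, stood at 183, 126 and 129 CPM in PA-1 and at 1.31, 5.23 and 9.26 CPM in TOV21G (2.98, SE 0.59, DESeq2 adjusted p = 0.0188). For both, the PA-1 libraries stayed far above every TOV21G library.

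**Figure D4:**
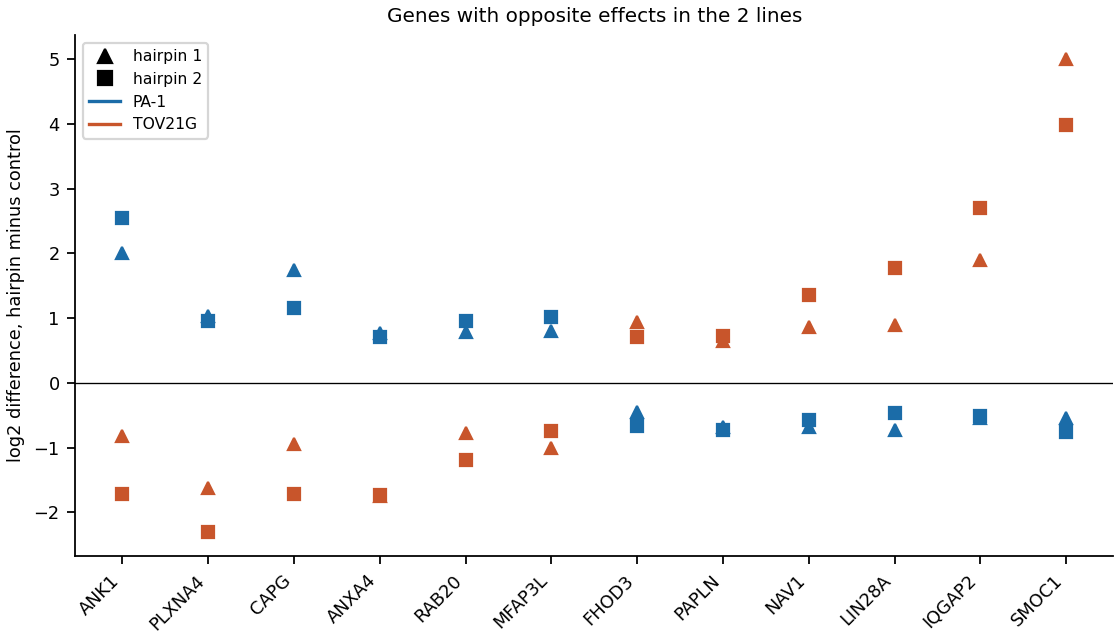
Log2 difference of each hairpin from the control of its line, PA-1 in blue and TOV21G in orange, for the 6 genes per direction with the largest opposite effects. From ANK1 to MFAP3L the PA-1 points lie above 0 and the TOV21G points below, and from FHOD3 to SMOC1 the reverse.

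Of 49 compared p53 targets, 1 was line-separated (CD82), against 1.68% of all genes separated lower and 0.520% higher. All 4 differences were above 0 for 16, against 20.7% of all genes, and below 0 for 6, against 30.1%. The list median was 0.09 (0.241 without PA-1 hairpin 2). The hairpin medians were 0.37 and 0.66 in PA-1 and 0.65 and 0.76 in TOV21G, so the list was higher in both. CDKN1A, which encodes p21, stood at 19, 35.3 and 106 CPM in PA-1 and at 699, 1093 and 2148 CPM in TOV21G, higher with hairpin 2 in each line (-0.68, SE 1.03). MDM2, the ubiquitin ligase of p53, stood at 164, 366 and 504 CPM in PA-1 and at 380, 1049 and 648 CPM in TOV21G (-0.25, SE 0.55). The sign of the difference turned for CDKN1A without PA-1 hairpin 2 (0.32) and for MDM2 without TOV21G hairpin 2 (0.08). PLK2 and BTG2, both induced by p53, leaned to PA-1 with differences of -1.46 (SE 0.67) and -0.98 (SE 0.44), and PMAIP1, the apoptosis gene NOXA, stood at 19.1, 32.4 and 49.8 CPM in PA-1 and at 11.5, 6.60 and 11.9 CPM in TOV21G. A p that misses the threshold does not show that the lines responded alike.

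Ferroptosis suppressors had a median difference of -0.36, and drivers had 0.09 over 31 genes. All 4 differences were below 0 for 12 of 26 suppressors, against 30.1% of all genes, and above 0 for 0, against 20.7%. Without TOV21G hairpin 1 the suppressor median was -0.61, and without TOV21G hairpin 2 the driver median was -0.029. NQO1, a quinone reductase and NRF2 target, was the separated suppressor, against 1.68% of all genes separated lower. It stood at 32.1, 36.2 and 42.8 CPM in PA-1 and at 689, 270 and 186 CPM in TOV21G (-1.90, SE 0.46, DESeq2 adjusted p = 0.305). GPX4, the peroxidase that removes lipid peroxides, stood at 121, 107 and 118 CPM in PA-1 and at 145, 97.5 and 112 CPM in TOV21G (-0.36, SE 0.35). For SLC7A11, the cystine importer, TOV21G had 34.6 CPM with hairpin 1 and 14.3 with hairpin 2 against 18 CPM in the control, and PA-1 had 365, 419 and 425 CPM. FTH1, the ferritin heavy chain, also split by hairpin in TOV21G, at 3512 and 10530 CPM against 6691. Its difference turned from 0.11 to -0.86 without TOV21G hairpin 2, and that of SLC7A11 from 0.24 to -0.54 without TOV21G hairpin 1. TFRC, the transferrin receptor, stood at 245, 324 and 360 CPM in PA-1 and at 519, 305 and 486 CPM in TOV21G, and ACSL4, which makes peroxidation-prone lipids, had 229, 190 and 227 CPM in PA-1 and 160, 144 and 318 CPM in TOV21G. The suppressor list shares FANCD2 with the repair genes above, at 126, 131 and 112 CPM in PA-1 and 47.3, 22.6 and 19.8 CPM in TOV21G.

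**Figure D5:**
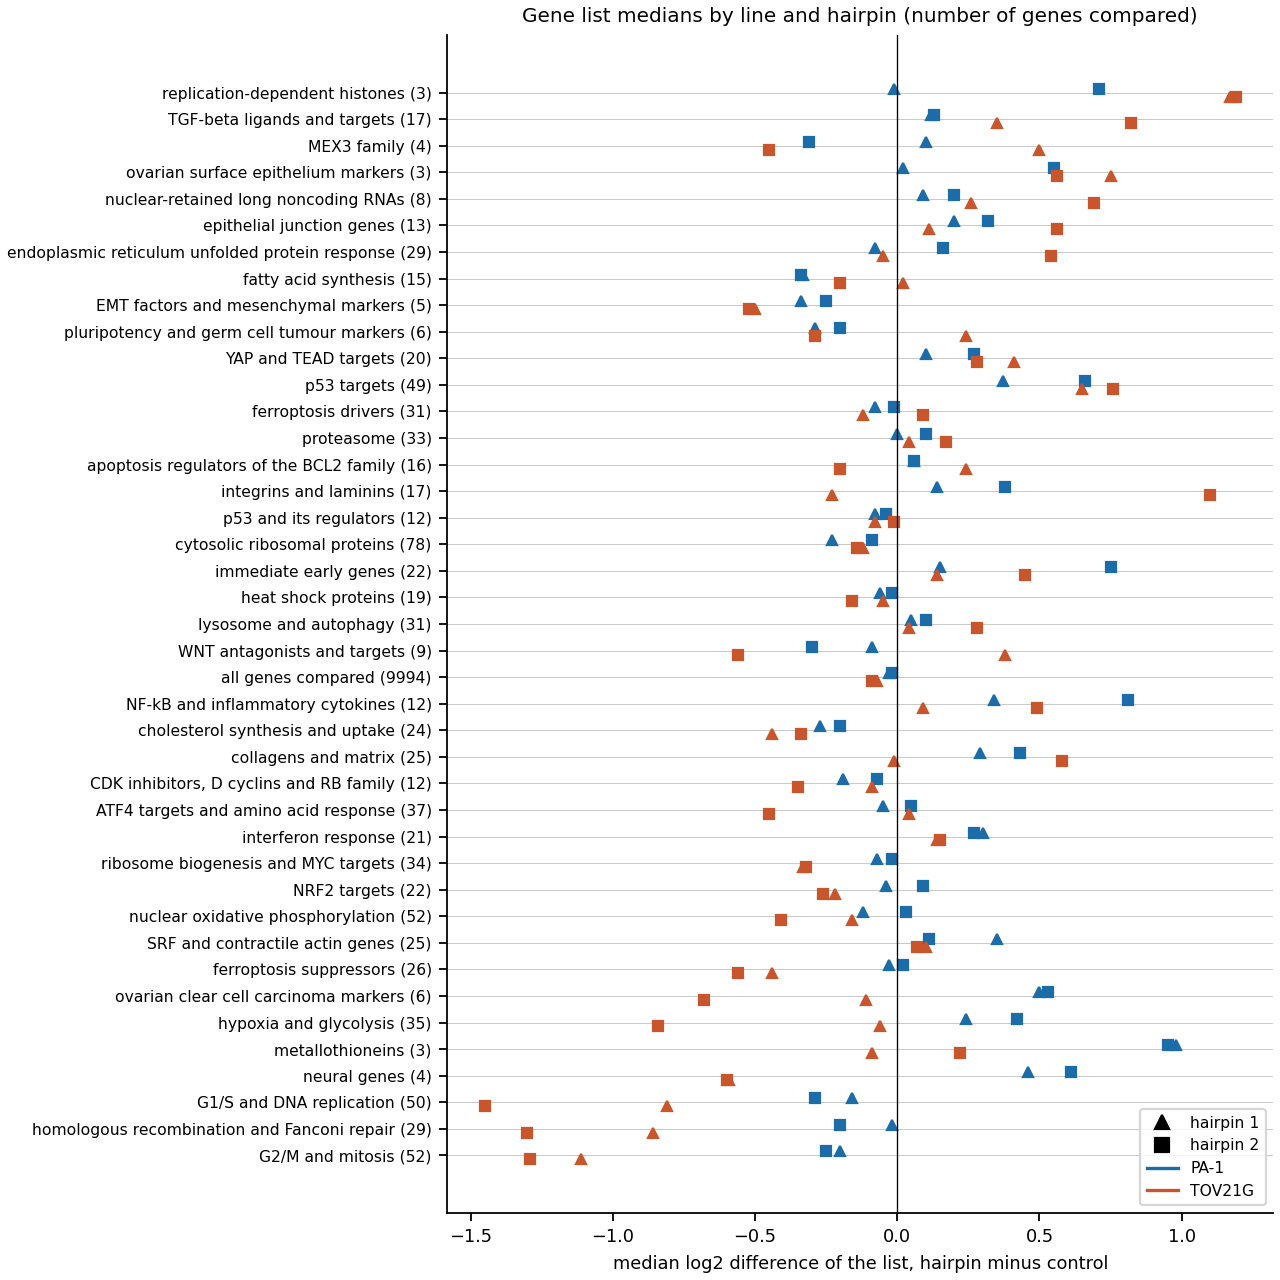
Median log2 difference from the control of each gene list, per line (PA-1 blue, TOV21G orange) and hairpin (triangle, hairpin 1, square, hairpin 2), ordered by the median difference between lines, with the number of genes compared in parentheses. The replication, repair and mitosis lists lie at the bottom with TOV21G far to the left of PA-1, and p53 targets lie to the right of 0 in both lines.

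Several lists were small. The 4 compared neural genes had a median difference of -0.87 (-0.416 with a 2 CPM minimum, which adds genes). The 3 metallothioneins had -0.76 and the 6 clear cell carcinoma markers -0.51. Of the last list SPP1 and ANXA4 were separated, against 1.68% of all genes separated lower. The last median was -1.035 without TOV21G hairpin 1 and -0.169 without TOV21G hairpin 2. Metallothionein genes are near-identical copies whose reads may be split between them. MT1X stood at 9.96, 17.3 and 19.3 CPM in PA-1 and at 7.73, 7.26 and 5.19 CPM in TOV21G. MALAT1, a nuclear-retained long noncoding RNA, took 0.0911%, 0.136% and 0.112% of counts in PA-1 and 0.423%, 0.976% and 1.72% in TOV21G, and ribosomal protein genes took 4.77% to 5.51% in PA-1 and at most 4.96% in TOV21G. The part of nuclear RNA content in the line differences was not tested.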

How the data were processed

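Poly(A)-selected RNA of 6 libraries (1 control and 2 hairpins in each of 2 lines) was sequenced with a strand-marking kit, per the labels' protocols. The authors deposited RSEM gene tables, and their expected count column was used. The submitters' processing notes name cutadapt 1.12, STAR 2.5.3a, RSEM 1.2.31, edgeR 3.26.8 and hg38. The strand setting of the counting is not given in the sources used here, so antisense and overlapping genes are less certain.

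Expected counts were rounded, scaled by TMM, filtered by filterByExpr and fitted with edgeR 4.0.16 (R 4.3.3) as 1 mean per line and hairpin target, tested on simulated data, with Benjamini-Hochberg adjustment over 16856 genes. The SE is the absolute log2 difference divided by the square root of F. DESeq2 1.42.0 and limma 3.58.1 were alternatives. Named genes were the study genes, the 12 widest gaps and 6 largest opposite effects per direction, the first 10 DESeq2 calls and up to 4 members per list. Others (LRP8, ELOVL7 and listed members) were named after their values were seen. Some genes under this rule are not reported here. Members and lists were chosen with earlier results of these data known. Motifs were read in 27305 RefSeq promoters, 1 per symbol. Each library held at least 14654628 counts.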

Additional observations from a re-analysis of the deposited data

Results flagged for a closer look

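In 1436 of the 9994 compared genes every TOV21G hairpin library lay on one side of its control and every PA-1 hairpin library on the other side of its own, at any size. The 12 given here are the 6 per direction with the largest such effects. They were not tested beyond the fits above, where edgeR called none of the 12 and DESeq2 called ANK1, ANXA4, SMOC1 and IQGAP2. Lower in TOV21G relative to PA-1 were ANK1 (log2 difference -3.59), PLXNA4 (-2.95), CAPG (-2.78), ANXA4 (-2.49), RAB20 (-1.88) and MFAP3L (-1.79). Higher were SMOC1 (5.66), IQGAP2 (2.98), LIN28A (2.00), NAV1 (1.77), PAPLN (1.40) and FHOD3 (1.39). The genes were picked for the largest such effects.

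In 3 lists the medians of both hairpins lay on opposite sides of 0 in the lines, which was not tested. These were hypoxia and glycolysis (median difference -0.68), neural genes (-0.87) and ovarian clear cell carcinoma markers (-0.51). Without TOV21G hairpin 1 they were -1.039, -0.846 and -1.035 in the same order, and without TOV21G hairpin 2 -0.389, -0.799 and -0.169. ENO2 belongs to the first 2 of these lists.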

How the results depend on the processing

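Among compared genes edgeR called 0 under other scalings, minimum levels and filters and with a replicate block, DESeq2 called 17, and leaving out a hairpin library gave 0 to 1, the 1 being SPP1 without TOV21G hairpin 2 (adjusted p = 0.0467). Line-separated genes numbered 232 higher and 593 lower at 1.5-fold and 11 and 33 at 3-fold, and 80 were higher with a 2 CPM minimum. Leaving out a hairpin library gave 84 to 309 higher and 238 to 677 lower, since fewer differences had to pass. Genes opposite in the lines numbered 0 at 2-fold, 1436 at any size, 23 with a 2 CPM minimum and 24 to 36 without a library. With DESeq2 size factors 29.8% of line-separated genes were higher, against 23.6%. Leave-one-out medians ran from -0.893 to -1.064 for mitosis and from -0.63 to -1.069 for repair. Medians changed sign for YAP and TEAD targets (-0.047 at 10 CPM, -0.056 to 0.322 without a library), fatty acid synthesis (-0.028 to 0.385 without a library), EMT genes (-0.197 to 0.17 without a library), ferroptosis drivers (-0.046 at 10 CPM, -0.029 without TOV21G hairpin 2), WNT antagonists and targets (0.04 at 2 CPM, 0.401 without TOV21G hairpin 2), collagens and matrix (0.339 without TOV21G hairpin 1), NF-kB genes (0.173 without TOV21G hairpin 1), and proteasome (-0.061), unfolded protein response (-0.085), epithelial junction (-0.098), integrin and laminin (-0.615) and p53 regulator (-0.017) genes without TOV21G hairpin 2. So did the lists of BCL2 family, cytosolic ribosomal protein, heat shock, immediate early and lysosome genes, whose medians lay within 0.05 of 0. FTH1 changed sign with limma voom (-0.09), with the replicate block (-0.09) and without a library (-0.86 to 0.7, and -0.03 without PA-1 hairpin 1). Without a library the range was -1.26 to 0.32 for CDKN1A, -0.54 to 0.76 for SLC7A11 and -0.64 to 0.08 for MDM2. The cause was not tested. A number shared by the lines marks the same hairpin reagent, and the hairpin contrast had r = 0.514 between lines across genes. With this pairing, taking only same-numbered differences gave 83 higher and 250 lower.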
